A study of Mus musculus with 8 samples.

Results

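Cathepsins are the proteases of the lysosome, and cystatins are the proteins that block the cysteine proteases among them. The 10 genes described here are 8 cathepsin genes (Ctsa, Ctsb, Ctsd, Ctsf, Ctsk, Ctsl, Ctss and Ctsz) and the genes of the inhibitors cystatin C (Cst3) and cystatin B (Cstb), chosen by name among the 31053 genes counted. Their mRNA was measured in fibro/adipogenic progenitors (FAPs), the mesenchymal cells that lie between muscle fibres and can become fat cells or fibroblasts. The cells came from hind limb muscles of mdx mice, a model of Duchenne muscular dystrophy that lacks dystrophin (strain C57BL/10ScSn-Dmdmdx/J, aged 45 days). Cells negative for CD45, CD31 and integrin alpha-7 and positive for the surface antigen SCA-1 were sorted into those with high SCA-1 (SCA1-High-FAPs) and those with low SCA-1 (SCA1-Low-FAPs), with 4 samples of each. Both cell states were grown for 5 days in growth medium with 20% foetal bovine serum and were harvested before any differentiation stimulus, so all 8 samples share the dystrophin mutation, the sort for FAPs and the culture. The study's description says that 4 mice gave both cell states.

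In textbook terms, most cathepsins of this set (Ctsb, Ctsf, Ctsk, Ctsl, Ctss and Ctsz) are cysteine proteases of the papain family, Ctsd is an aspartic protease and Ctsa a serine carboxypeptidase. They are made as inactive precursors, carried to the lysosome by sorting receptors and activated there at acid pH, and some are also secreted and cut extracellular matrix. Cystatin C is secreted by nearly all cells and inhibits papain-family cathepsins outside the cell, whereas cystatin B does so in the cytosol, and neither inhibits Ctsa or Ctsd.

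Levels are given as CPM, the read count of a gene after TMM scaling of all samples to 1 library size. The libraries read the 3′ end of each transcript, so CPM was not divided by transcript length. Samples held between 1880561 and 3985656 reads on genes, where 3 counts, taken as the least this depth can show, stood at 0.753 to 1.60 CPM. This limit covers counting error only. All differences are log2 fold changes with SCA1-Low-FAPs in the numerator, so negative values mean a lower level in SCA1-Low-FAPs. A gene was called changed at a Benjamini-Hochberg adjusted p-value under 0.05 in edgeR's quasi-likelihood test with a log2 fold change of more than 0.5 in either direction. Of 10181 genes tested, 7.68% were called, 4.36% higher in SCA1-High-FAPs and 3.32% higher in SCA1-Low-FAPs.

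Of the 10 genes, 9 could be tested and 2 were called, Ctsf and Ctsb, both higher in SCA1-High-FAPs. For Ctsf, Ctsb and Ctsa the CPM ranges of the cell states did not overlap, each higher in SCA1-High-FAPs, which held for 7.46% of all tested genes. Ctsd, Ctsk, Ctsl, Ctsz, Cst3 and Cstb had overlapping ranges and did not pass the test, and Ctss had 13 reads in all samples together. The median log2 fold change of the 9 tested genes was -0.21, beside 0.00 over all tested genes, with 7 negative and 2 positive values.

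**Figure D1:**
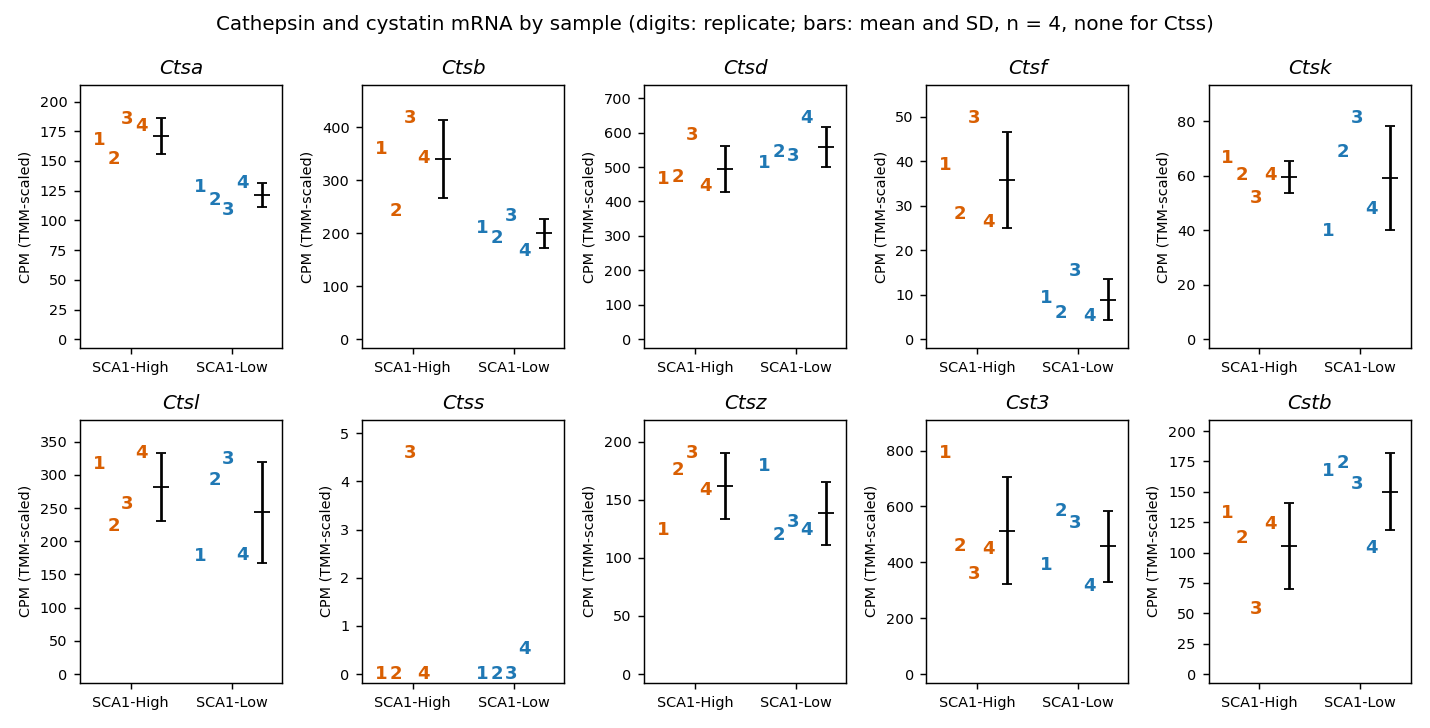
CPM (vertical axis, from 0) of each of the 10 genes in SCA1-High-FAPs (orange) and SCA1-Low-FAPs (blue). Digits mark the replicate number, and bars give the mean and SD over 4 samples except for Ctss, where 6 of 8 samples were at 0. The 2 groups are apart for Ctsf, Ctsb and Ctsa and mixed for the others.

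The largest difference among the 10 genes was that of Ctsf (ENSMUSG00000083282, chr19:4855130-4860918 on GRCm38, + strand), which encodes cathepsin F, a lysosomal cysteine protease known for loss-of-function mutations in a neuronal storage disease. Ctsf stood at 39.1, 28.0, 49.7 and 26.4 CPM in SCA1-High-FAPs replicates 1 to 4, against 9.18, 5.99, 15.2 and 5.28 CPM in SCA1-Low-FAPs replicates 1 to 4. Each SCA1-High-FAPs sample was above each SCA1-Low-FAPs sample. The means were 35.8 ± 10.8 and 8.92 ± 4.53 CPM (SD, n = 4 each), which is a 3.96-fold higher level in SCA1-High-FAPs. On the log2 scale the edgeR difference was -1.99 (SE 0.36, adjusted p = 0.00254), with a 95% interval from -2.74 to -1.23. Ctsf ranked 125 by p-value among the 10181 tested genes, and it was called in all 15 alternative fits. It rested on 11 to 119 reads per sample.

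Ctsb (ENSMUSG00000021939, chr14:63122462-63145923, + strand) encodes cathepsin B, one of the most widely expressed lysosomal cysteine proteases. Its levels were 359, 242, 417 and 342 CPM in SCA1-High-FAPs, against 209, 192, 232 and 167 CPM in SCA1-Low-FAPs, in replicate order. The lowest SCA1-High-FAPs sample was just above the highest SCA1-Low-FAPs sample. With means of 340.1 ± 72.9 CPM and 200.05 ± 27.3 CPM (SD, n = 4 each), Ctsb was 1.70-fold higher in SCA1-High-FAPs. By edgeR the log2 difference was -0.77 (SE 0.17, adjusted p = 0.0101), with a 95% interval from -1.13 to -0.41. The call held in all 15 alternative fits. The last 500 bases of Ctsb, where 3′ reads fall, overlap exons of Fdft1 on the opposite strand, and the strand setting of the counting is not stated. In counting without strand, a read over both genes is ambiguous, and ambiguous reads are kept apart from the gene counts. In all samples together Ctsb had 5380 reads and Fdft1 had 591. Fdft1, a gene of sterol synthesis, itself had 5.44 to 39.5 CPM over the 8 samples, with a log2 difference of -0.35 (adjusted p = 0.666 in edgeR).

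Ctsa (ENSMUSG00000017760, chr2:164832873-164841032, + strand) encodes cathepsin A, the protective protein that stabilises beta-galactosidase and neuraminidase in the lysosome. It stood at 168, 151, 185 and 180 CPM in SCA1-High-FAPs, against 128, 117, 109 and 131 CPM in SCA1-Low-FAPs. The groups did not overlap, and their means were 171 ± 15.01 CPM and 121 ± 10.3 CPM (SD, n = 4 each). The edgeR log2 difference of -0.49 (SE 0.15, adjusted p = 0.0489) passed the threshold on p but not that on size, so Ctsa was not counted as called. Its p-value lay at the edge of the threshold. Ctsa passed both thresholds with scaling by library size only (-0.52, adjusted p = 0.0325) and with a filter of 10 counts in every sample (-0.52, adjusted p = 0.0353). It missed that on p with RLE factors (adjusted p = 0.0502), a non-robust fit (0.0534), no filter (0.0922) and the replicate number as a block (0.102), and in edgeR with any 1 of the 8 samples left out (0.0581 to 0.112). Ctsa shares exon bases with Pltp and Neurl2 on the opposite strand, with the same limit on strand.

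**Figure D2:**
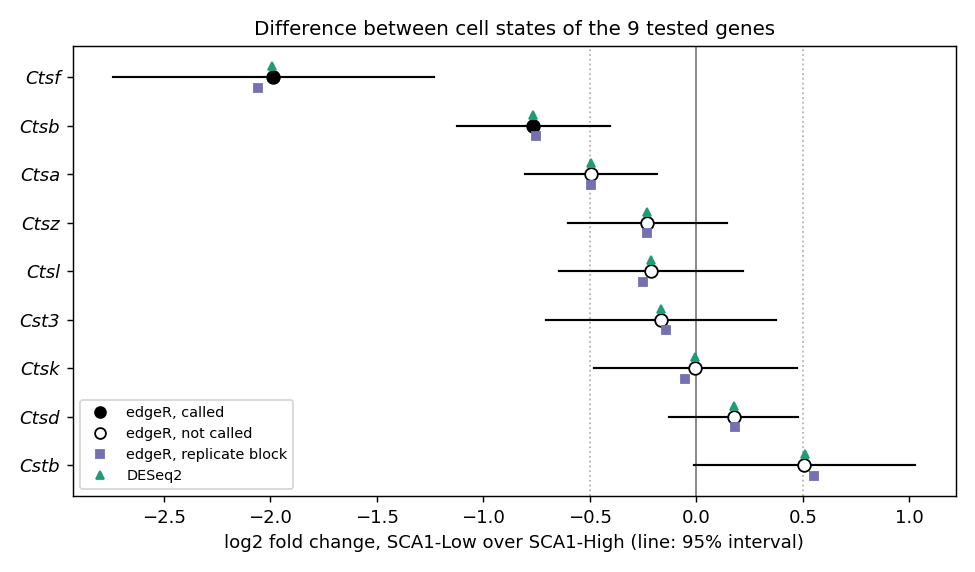
Log2 fold change, SCA1-Low over SCA1-High (horizontal axis) of the 9 tested genes, as edgeR estimates with 95% intervals (circles, filled where called), with the replicate number as a block (squares) and by DESeq2 (triangles). Dotted lines mark a size of 0.5. Ctsf at -1.99 and Ctsb at -0.77 are the called genes, and the intervals of Ctsz, Ctsl, Cst3, Ctsk, Ctsd and Cstb include 0.

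The CPM ranges of Ctsf and Ctsa lay higher in SCA1-High-FAPs without overlap, though Ctsa was not called, and those of Ctsd overlapped. The promoters of these genes are shown side by side, from RefSeq on GRCm38.p6. Each runs from 250 bases before to 50 bases after the gene start. The search was for CACGTG, the E-box hexamer, and for TCACGTGA, which contains it and is the core of an element known from promoters of lysosomal genes. Each motif reads the same on both strands. Capitals mark these motifs in the promoters of Ctsf (chr19:4854915-4855214, + strand), of the second of 2 Ctsa starts (chr2:164833523-164833822, + strand) and of Ctsd (chr7:142387778-142388077, - strand).
Ctsf: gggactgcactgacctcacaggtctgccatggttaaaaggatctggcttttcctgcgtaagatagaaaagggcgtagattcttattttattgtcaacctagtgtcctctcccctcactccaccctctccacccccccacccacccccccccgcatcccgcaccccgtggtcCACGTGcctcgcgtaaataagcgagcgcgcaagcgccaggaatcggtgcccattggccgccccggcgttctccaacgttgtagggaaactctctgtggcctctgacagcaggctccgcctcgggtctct
Ctsa: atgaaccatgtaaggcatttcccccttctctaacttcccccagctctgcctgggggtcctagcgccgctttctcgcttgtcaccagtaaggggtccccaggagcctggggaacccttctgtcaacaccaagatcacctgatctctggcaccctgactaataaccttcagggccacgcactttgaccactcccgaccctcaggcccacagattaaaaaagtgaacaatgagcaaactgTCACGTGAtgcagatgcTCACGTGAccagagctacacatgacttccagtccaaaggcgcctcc
Ctsd: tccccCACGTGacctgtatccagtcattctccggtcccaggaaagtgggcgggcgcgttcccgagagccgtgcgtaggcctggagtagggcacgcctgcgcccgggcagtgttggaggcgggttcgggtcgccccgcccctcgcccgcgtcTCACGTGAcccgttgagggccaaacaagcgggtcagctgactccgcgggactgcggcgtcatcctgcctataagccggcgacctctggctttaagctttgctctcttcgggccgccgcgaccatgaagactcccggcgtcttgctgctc
The hexamer starts 79 bases before the gene start in Ctsf. In the promoter of the second Ctsa start, TCACGTGA occurs 2 times, with the first C of the hexamer 12 bases before and 6 bases after the start. The promoter of the first Ctsa start (chr2:164832622-164832921, + strand) holds neither motif. Ctsd has the hexamer alone 245 bases before the start and TCACGTGA with its first C 98 bases before it. RefSeq promoters were matched for 8 of the 10 genes, all but Ctsb and Cstb, 9 promoters in all. CACGTG was found in 4 of these 9, the last being that of Ctsl 236 bases before the start, and TCACGTGA in 2. The promoters of Ctsk, Ctss, Ctsz and Cst3 hold neither motif. They are not shown, nor are those of Ctsl and the first Ctsa start. Of all 32851 promoters of this length, 7.15% hold CACGTG and 0.974% hold TCACGTGA. Ctsf is thus the only called gene whose promoter was searched, and the other promoters with CACGTG belong to Ctsa, Ctsd and Ctsl, which were not called. These matches describe the letters of the sequence only.

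Ctsd (chr7:142375911-142388038, - strand), the gene of the aspartic protease cathepsin D, which does bulk protein breakdown in the lysosome, had the highest CPM of the 8 cathepsins in each sample. Its levels were 466, 472, 594 and 444 CPM in SCA1-High-FAPs, against 512, 543, 532 and 642 CPM in SCA1-Low-FAPs. The group ranges overlapped, with SCA1-High-FAPs replicate 3 above 3 of the SCA1-Low-FAPs samples. The edgeR log2 difference was 0.17 (SE 0.14, adjusted p = 0.535), with a 95% interval from -0.13 to 0.48, and so did not pass the test.

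The other cysteine cathepsins did not pass it either. Ctsl (chr13:64359337-64370890, - strand) encodes cathepsin L, an endopeptidase that breaks down proteins in the lysosome. It had 316, 223, 257 and 333 CPM in SCA1-High-FAPs, against 177, 292, 324 and 179 CPM in SCA1-Low-FAPs, with a log2 difference of -0.21 and a 95% interval from -0.65 to 0.22 (edgeR, adjusted p = 0.605). Of the SCA1-Low-FAPs samples 2 were below all SCA1-High-FAPs samples and 2 within their range. Ctsz (chr2:174427493-174439039, - strand), the gene of a carboxypeptidase also called cathepsin X, had 124, 175, 190 and 159 CPM in SCA1-High-FAPs, against 179, 120, 131 and 124 CPM in SCA1-Low-FAPs. Here replicate 1 stood apart in both groups, lowest in SCA1-High-FAPs and highest in SCA1-Low-FAPs, and the log2 difference was -0.23 (SE 0.18, 95% interval from -0.60 to 0.14, edgeR adjusted p = 0.503).

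Ctsk (chr3:95499256-95509362, + strand) encodes the collagen-degrading cathepsin K, best known as the matrix protease of osteoclasts and also made by fibroblasts. It had 66.4, 60.1, 51.8 and 60.1 CPM in SCA1-High-FAPs, against 39.6, 68.6, 81.2 and 47.8 CPM in SCA1-Low-FAPs. The means were nearly the same, 59.6 ± 5.997 and 59.3 ± 19.0 CPM (SD, n = 4 each), while the SCA1-Low-FAPs samples spread further to both sides. The log2 difference was -0.01 (SE 0.23, edgeR adjusted p = 0.992), with a 95% interval from -0.48 to 0.47, and its sign changed with the filter and with the sample left out. In SCA1-Low-FAPs both Ctsl and Ctsk had replicates 2 and 3 above replicates 1 and 4, as did Cst3.

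Ctss (chr3:95526786-95556403, + strand), the gene of cathepsin S, which processes the invariant chain of MHC class II in antigen-presenting cells, was at 0 reads in 6 of the 8 samples. It had 11 reads (4.59 CPM) in SCA1-High-FAPs replicate 3 and 2 reads (0.528 CPM) in SCA1-Low-FAPs replicate 4. The first of these was above the limit of 3 counts and the other below it. Ctss fell under the filter on low counts. With reads in 2 samples only, a two-sided exact permutation test of mean CPM over the 70 assignments cannot give a p below 0.429 for these values, so it could not have passed. The exact test gave p = 1, and these data do not bear on a difference in Ctss.

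Cst3 (chr2:148871722-148875692, - strand), the gene of cystatin C, gave, with Ctsd, the highest mean CPM of the 10 genes. It had 792, 457, 357 and 449 CPM in SCA1-High-FAPs, against 390, 585, 540 and 315 CPM in SCA1-Low-FAPs. One sample, SCA1-High-FAPs replicate 1, was above all others, and the remaining 7 samples lay between 315 and 585 CPM with the groups mixed. The means of 514 ± 191 and 457 ± 126 CPM (SD, n = 4 each) differed by less than either SD. The edgeR log2 difference was -0.17 (SE 0.25, adjusted p = 0.776) with a 95% interval from -0.71 to 0.37, and without SCA1-High-FAPs replicate 1 it was 0.12 (adjusted p = 0.796).

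The order of samples in Cst3 was close to that of Tmem165 and Ndufa7, with Pearson correlations of log2 CPM of 0.97 and 0.96 over the 8 samples. These were among the 3 highest of all tested genes. Ndufa7 encodes a subunit of respiratory complex I. Their own log2 differences between the cell states were -0.15 and -0.14, with adjusted p-values of 0.807 and 0.669 in edgeR. For Ctsf the highest correlations were with Eya2 (0.996), Deptor (0.991) and Apoe (0.990). Those values carry the difference between the groups, because Eya2, Deptor and Apoe were themselves called higher in SCA1-High-FAPs, with log2 differences of -1.70, -2.38 and -3.75 (adjusted p = 0.00598, 0.00129 and 0.0278 in edgeR). Eya2 is a transcriptional coactivator, Deptor an inhibitor of mTOR, and Apoe the gene of apolipoprotein E.

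Cstb (chr10:78425669-78427622, + strand), the gene of the cytosolic inhibitor cystatin B, was the only one of the 9 tested genes with a positive log2 difference beyond 0.5, at 0.51 (SE 0.24), and it did not pass the test (edgeR adjusted p = 0.249). Its levels were 133, 112, 53.9 and 123 CPM in SCA1-High-FAPs, against 167, 174, 156 and 103 CPM in SCA1-Low-FAPs. In SCA1-Low-FAPs 3 samples were above every SCA1-High-FAPs sample, and replicate 4 was below 3 of them. The means were 105 ± 35.4 and 150.1 ± 31.9 CPM (SD, n = 4 each), and the 95% interval ran from -0.01 to 1.03.

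Summed over the cysteine cathepsins Ctsb, Ctsf, Ctsk, Ctsl, Ctss and Ctsz, the level in SCA1-High-FAPs was 881 ± 105 CPM, against 650.0 ± 109 CPM in SCA1-Low-FAPs (SD, n = 4 each). The ranges, 729 to 970 and 524 to 783 CPM, overlapped. Divided by Cst3 CPM in the same sample, the sum gave 1.14, 1.60, 2.71 and 2.05 in SCA1-High-FAPs and 1.58, 1.16, 1.45 and 1.66 in SCA1-Low-FAPs. The balance of the summed cysteine cathepsin to cystatin C mRNA thus overlapped between the cell states, with means of 1.88 ± 0.67 and 1.46 ± 0.22 (SD, n = 4 each). It spread further among SCA1-High-FAPs, where Cst3 was highest in replicate 1 and lowest in replicate 3.

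The summed CPM of all 8 cathepsins overlapped, at 1352 to 1749 in SCA1-High-FAPs and 1255 to 1425 in SCA1-Low-FAPs, while the shares of some genes in it did not. Shares and sums were not compared by a test, and Ctsb and Ctsf were the 2 genes already called. Ctsd took 28.8% to 34.9% of the summed cathepsin CPM in SCA1-High-FAPs, against 37.4% to 49.5% in SCA1-Low-FAPs. Ctsb took 17.9% to 23.8% and 12.9% to 16.7%, and Ctsf a mean of 2.29% and 0.664%, respectively. The ratio of Ctsd to Ctsb CPM was 1.30, 1.95, 1.42 and 1.30 in SCA1-High-FAPs and 2.45, 2.84, 2.30 and 3.84 in SCA1-Low-FAPs, without overlap. This pair was chosen after its values were seen and is given without a test. Shares add up to a whole, so a lower share of Ctsb goes with a higher share of others.

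**Figure D3:**
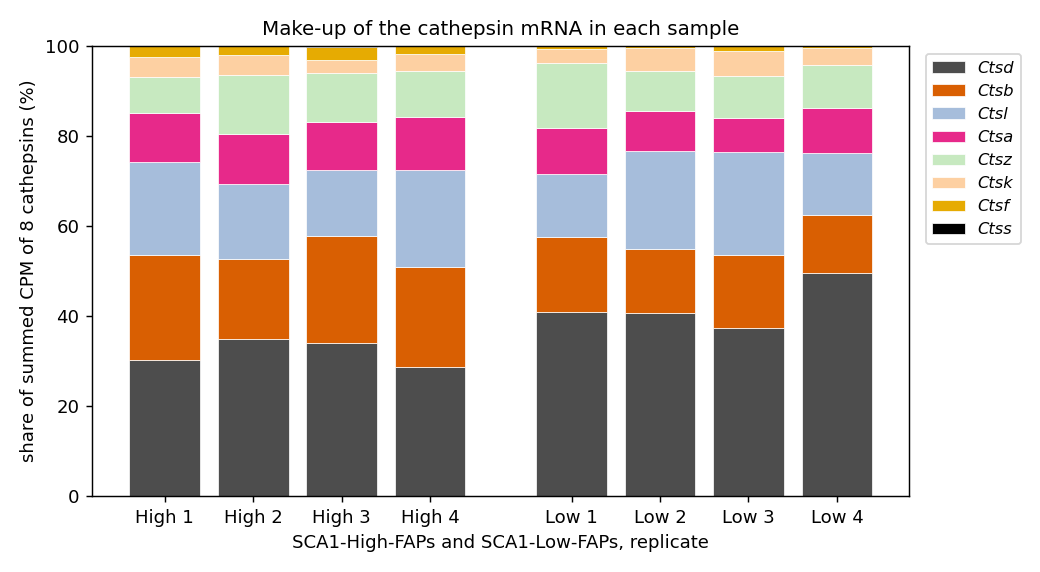
Share of each of the 8 cathepsin genes in their summed CPM (vertical axis, in %, from 0 to 100) in each of the 8 samples, by cell state. The Ctsd share (dark grey) is 28.8% to 34.9% in the High samples and 37.4% to 49.5% in the Low samples, and the Ctsb share (orange) is larger in each High sample.

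Several values moved with Ctsf and Ctsb. The 8 listed adipocyte markers summed to 1069 to 5653 CPM in SCA1-High-FAPs, against 120 to 643 CPM in SCA1-Low-FAPs. Of the 7 tested, 4 were called higher in SCA1-High-FAPs (Adipoq, Retn, Adrb3 and Lipe), beside 4.36% of all tested genes, while Lep was at 0 in every sample. In SCA1-Low-FAPs Retn had 0.264 to 1.93 CPM and Adrb3 0.544 to 2.90 CPM, near the limit of 3 counts. Both entered the test through SCA1-High-FAPs, so this share is not a like comparison with the 4.36%. With 1 sample left out, Adipoq was called only without SCA1-High-FAPs replicate 4 or SCA1-Low-FAPs replicate 3 (edgeR adjusted p from 0.0535 to 0.111 in the other fits), and Lipe only without SCA1-High-FAPs replicates 1, 2 or 4 (0.0532 to 0.0889 in the others). Within SCA1-Low-FAPs, replicate 3 had both the highest marker sum and the highest Ctsf level. In SCA1-High-FAPs the highest marker sum was in replicate 1 and the highest Ctsf level in replicate 3. In bulk samples a change in the number of cells of a type and a change in RNA per cell cannot be told apart, and the part of the adipocyte markers in the Ctsf and Ctsb differences was not tested.

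**Figure D4:**
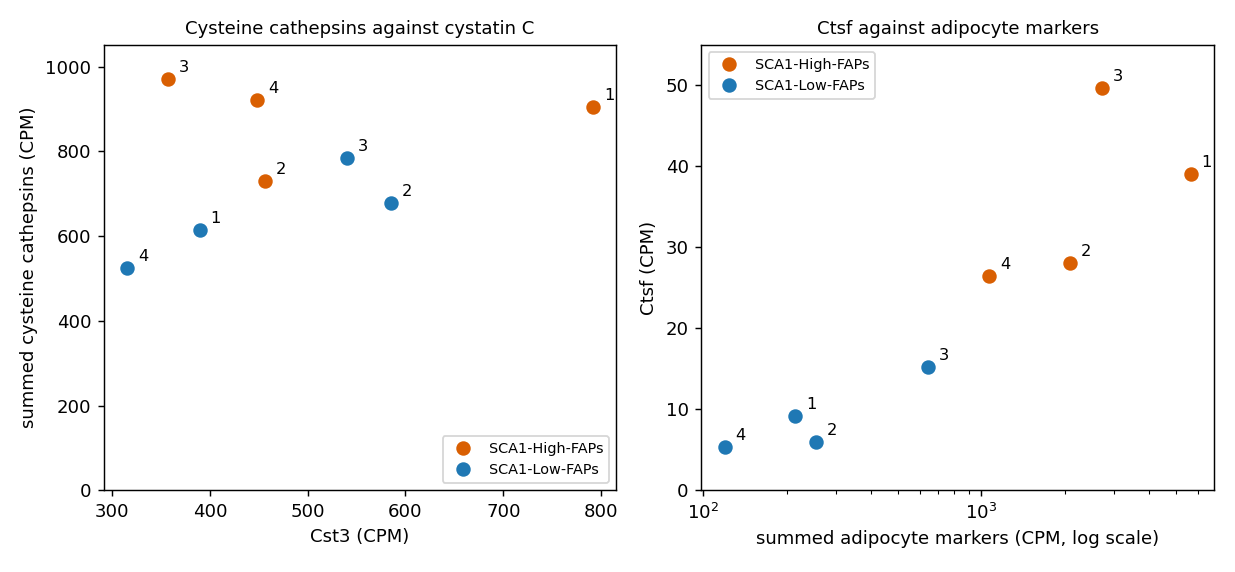
Left, summed CPM of 6 cysteine cathepsins (vertical axis) against Cst3 CPM (horizontal axis). Right, Ctsf CPM against the summed CPM of adipocyte markers (log scale). Points are samples with their replicate number, SCA1-High-FAPs in orange and SCA1-Low-FAPs in blue. On the left the groups are mixed along Cst3, and on the right the SCA1-Low-FAPs samples lie at 120 to 643 CPM of markers and 5.28 to 15.2 CPM of Ctsf.

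Cathepsins are also abundant in macrophages. Of 14 macrophage and leucocyte markers, 12 had at most 10 CPM in every sample and 5 were at 0 throughout. Ptprc, the gene of CD45, had 1 read in all samples together. The whole list summed to 28.97 to 48.4 CPM in SCA1-High-FAPs and, without overlap, to 17.97 to 24.1 CPM in SCA1-Low-FAPs. Without Lyz2 the sums were 6.97 to 11.3 and 8.17 to 16.4 CPM and overlapped. Lyz2 was the 1 gene of the list that could be tested, and it was called, with a log2 difference of -1.42 (edgeR adjusted p = 0.0153, but 0.0529 without SCA1-High-FAPs replicate 1 and 0.0560 without SCA1-Low-FAPs replicate 1). Osteoclast, endothelial and myogenic markers (7, 6 and 6 genes) had at most 10 CPM in every sample, and none of these genes could be tested. Of 5 mural cell markers 3 could be tested and were called, beside 7.68% of all tested genes. Myh11 and Cspg4 were higher in SCA1-Low-FAPs and Notch3 higher in SCA1-High-FAPs. They had as few as 6, 3 and 6 reads in a sample, each in the group where the gene was lower. Their share is therefore not a like comparison with the 7.68%. Myh11 was not called without SCA1-High-FAPs replicate 4 or SCA1-Low-FAPs replicates 1 or 2 (edgeR adjusted p from 0.0537 to 0.10004). Cspg4 was called only without SCA1-High-FAPs replicate 1 or SCA1-Low-FAPs replicate 3 among the fits with 1 sample left out, and Notch3 only without SCA1-Low-FAPs replicate 3. The part of these markers in the cathepsin differences was not tested.

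All 8 FAP markers were detected and tested. Ly6a, the gene of SCA-1 itself, was higher in SCA1-Low-FAPs (1087 ± 58.8 against 711 ± 184 CPM, SD, n = 4 each), opposite to the surface sort made 5 days earlier. Its log2 difference was 0.61 (edgeR adjusted p = 0.0341), and with 1 sample left out it was called only without SCA1-High-FAPs replicate 4, with adjusted p-values of 0.0513 to 0.0947 in the other 7 fits. Thy1 was also called higher in SCA1-Low-FAPs (0.67, adjusted p = 0.0105 in edgeR) and Dcn higher in SCA1-High-FAPs (-2.08, adjusted p = 0.0167). Thy1 was not called without SCA1-Low-FAPs replicate 1 (adjusted p = 0.0507 in edgeR), nor Dcn without its replicates 2 or 4 (0.0504 and 0.0537 as adjusted p). The directions above are therefore those of the labelled cell states and not of Ly6a mRNA.

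Most of the other cathepsin and protease inhibitor genes had few or no reads in these cells. Of 41 such genes listed, 39 were in the count files, 14 had a read, 7 could be tested and 3 were called, beside 7.68% of all tested genes. Of the called genes, Tinagl1 and Kng1 had as few as 0 and 3 reads in a sample. They entered the test through the group where they were higher, so this share is not a like comparison with the 7.68%. With 10 counts in every sample, 4 genes were tested and 1 was called, Kng2. The highest levels were those of the inhibitor gene Serpinb6a (356 to 624 CPM over the 8 samples) and the cysteine cathepsin Ctsh (118 to 191 CPM). Neither was called in the main fit (log2 differences 0.43 and 0.16, edgeR adjusted p = 0.0854 and 0.638). Kng1 and Kng2 encode kininogens, plasma proteins that carry cystatin domains and inhibit cysteine cathepsins. Kng1 had 23.5 to 66.8 CPM in SCA1-High-FAPs, against 1.63 to 7.61 CPM in SCA1-Low-FAPs, with a log2 difference of -3.30 (edgeR adjusted p = 0.000672). Kng2 had 33.9 to 122 CPM and 5.80 to 16.8 CPM, with a log2 difference of -2.42 (edgeR adjusted p = 0.00342). Their transcript ends are near-identical copies, and reads aligned to several places were given to no gene. Both may thus have lost reads, and the split between the 2 genes is uncertain. Tinagl1, which encodes a secreted cathepsin B-related protein without protease activity, went the other way. It had 0 to 2.26 CPM in SCA1-High-FAPs, against 5.71 to 13.1 CPM in SCA1-Low-FAPs (log2 difference 2.97, edgeR adjusted p = 0.0175), and it was not called without SCA1-High-FAPs replicate 4 or SCA1-Low-FAPs replicates 1 or 4 (adjusted p from 0.0527 to 0.0768).

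Of 14 genes for the processing and sorting of cathepsins, 1 was called, a share close to the 7.68% called among all tested genes. Sort1, the gene of sortilin, a receptor that carries lysosomal proteins including cathepsins from the Golgi, had 18.0 to 63.5 CPM in SCA1-High-FAPs, against 7.13 to 16.3 CPM in SCA1-Low-FAPs. Its log2 difference was -1.94 (SE 0.37, edgeR adjusted p = 0.00339), close to that of Ctsf, and the call held in all 15 alternative fits.

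Among 58 tested lysosomal genes without the cathepsins, 4 were called, all higher in SCA1-High-FAPs. They were Gm2a, an activator protein of ganglioside breakdown (-2.15, adjusted p = 0.0200), Pla2g15, a lysosomal phospholipase (-1.25, adjusted p = 0.0219), Gaa, the acid alpha-glucosidase of glycogen breakdown (-0.60, adjusted p = 0.0353), and Lamp2, a lysosomal membrane protein (-0.66, adjusted p = 0.0268), all log2 differences from edgeR. The share of 4 in 58 is close to the 7.68% of all tested genes called in either direction. By direction, 4.36% of all tested genes were called higher in SCA1-High-FAPs and 3.32% higher in SCA1-Low-FAPs, where none of the 58 was called. None of the 4 was called without SCA1-Low-FAPs replicate 1 or replicate 4, and 1 was called without SCA1-High-FAPs replicate 3 or SCA1-Low-FAPs replicate 2. Gaa was also lost without SCA1-High-FAPs replicate 2 or SCA1-Low-FAPs replicate 3, and Lamp2 without SCA1-High-FAPs replicate 4. Where a call was lost in this way, edgeR adjusted p-values ran from 0.0538 to 0.103. Of the 33 tested genes in the hydrolase list 23 had a negative log2 difference, with a median of -0.22, beside 49.97% negative among all tested genes. This list also holds genes that are not hydrolases, such as Npc2 and Gm2a. Of the 25 tested membrane and proton pump genes 17 had a positive one, with a median of 0.15. The summed CPM of the hydrolase list was 2773 to 3591 in SCA1-High-FAPs and 2451 to 2523 in SCA1-Low-FAPs, without overlap. A large part of these sums was Npc2, with 874 to 1448 CPM in SCA1-High-FAPs and 714 to 841 CPM in SCA1-Low-FAPs. Npc2 was not called (edgeR adjusted p = 0.0855). The MiT/TFE genes, transcription factors known to drive lysosomal genes, gave no call among the 2 tested by edgeR, Tfe3 and Mitf, and none by DESeq2. Tfe3 had an unadjusted p of 0.0390 in edgeR (log2 difference -0.52, adjusted p = 0.204). The larger difference was that of Mitf (-0.78, unadjusted p = 0.0774, adjusted p = 0.300 in edgeR).

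**Figure D5:**
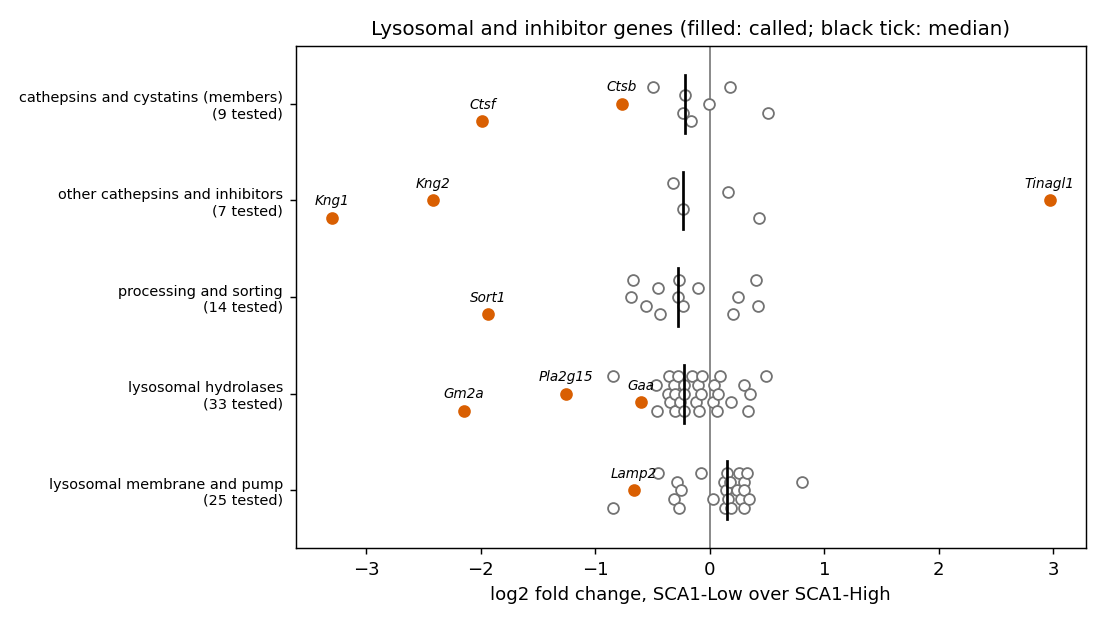
Log2 fold change, SCA1-Low over SCA1-High (horizontal axis) of each tested gene in 5 lists, with called genes filled and named and the list median as a black tick. The cathepsin and cystatin genes and the genes of the hydrolase list lie mostly left of 0 with medians of -0.21 and -0.22, and the membrane and pump genes mostly right of it with a median of 0.15.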

How the data were processed

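Total RNA of 8 cultures was made into QuantSeq 3′ FWD libraries. According to the study's methods and the submitters' processing notes, the authors trimmed the reads, aligned them with STAR to mm10 and counted them on Ensembl release 93 genes with HTSeq. The deposited values are these raw counts per gene, without normalisation. Strand setting and minimum alignment quality are not given in the sources used here. Reads aligned to several places, given by the authors to no gene, were 37.5% to 43.3% of all reads, and reads on no gene 7.87% to 10.2%. Total counts on genes ran from 1880561 to 3985656.

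Of 31053 identifiers, 30934 were matched to symbols, and positions are from GENCODE M21 (GRCm38, the sequence of mm10). Counts were scaled by TMM, filtered with filterByExpr (minimum 10 counts, 15 in total) and compared with edgeR 4.0.16 in R 4.3.3, by its robust quasi-likelihood test, with Benjamini-Hochberg adjustment over all 10181 tested genes. Intervals are at the 95% level. Ctss was compared by an exact permutation test. The edgeR p-values set the difference between the cell states against the spread of samples within each. The main fit took the 8 samples as independent, though by the study's description the same mice gave both cell states. Transcript ends were compared with BLAST 2.17.0. Python 3.11.15 with pandas 2.3.3 was used for tables and matplotlib 3.10.9 for plots. The tests were checked on simulated data.

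Alternatives were DESeq2 1.42.0, RLE factors, library size only, no filter, 10 counts in every sample, a non-robust fit, the replicate number as a block, and each sample left out in turn. The members, lists and tests were chosen with earlier results of these data known. Named genes are the members, the called genes of the lists, the most changed gene of a list without calls, and the 3 genes most correlated with Cst3 and with the member of lowest p. Of these, 1 gene is not reported here.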

Additional observations from a re-analysis of the deposited data

Results flagged for a closer look

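The 20 groups formed by 10 genes and 2 cell states were searched for a sample far from the other 3, by the gap to its nearest neighbour over the range of the group. In 2 of them the ratio passed Dixon's 95% critical value. Both were Ctss, where 3 samples at 0 make the ratio pass whatever the fourth value is. The rate of about 1 group in 20 that chance gives therefore does not apply to them. In SCA1-High-FAPs, replicate 3 had 4.59 CPM and the others 0. In SCA1-Low-FAPs, replicate 4 had 0.528 CPM and the others 0, which is below the limit that 3 counts set.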

How the results depend on the processing

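Of the 10 cathepsin and cystatin genes, Ctsf and Ctsb were called in all 15 alternatives, and 2 to 3 genes were called in each. The sign of Ctsk was unstable around 0, at 0.0115 without a filter and from -0.21 to 0.15 with each sample left out. Cst3 ranged from -0.31 to 0.12 with each sample left out, and the positive value came without SCA1-High-FAPs replicate 1. With each sample left out, the count of all called genes ranged from 410 to 1017 against 782 (417 without SCA1-Low-FAPs replicate 1 and 410 without its replicate 4), that of the lysosomal genes from 0 to 5 against 4, and that of the other cathepsins and inhibitors from 2 to 4 against 3. With 10 counts in every sample the last count was 1, as only 4 of its genes were tested. The ratio of summed cysteine cathepsins to Cst3 in SCA1-Low-FAPs over SCA1-High-FAPs was 0.780, from 0.690 to 0.916 with each sample left out, and scaling cannot change it. Both cell states carry replicate numbers 1 to 4, but the labels do not say that equal numbers share a mouse. Deviations of same-numbered samples correlated at -0.0502 to 0.00673, and 0 of 8 samples correlated best with their own number. With the replicate number as a block 2 of the 10 genes and 697 of all genes were called. Of the called genes named from the lists, Gaa, Ly6a and Notch3 were then not called (adjusted p = 0.0891, 0.0573 and 0.0955 in edgeR), and Gm2a, Lipe and Notch3 were not called without a filter (adjusted p = 0.0588, 0.0622 and 0.0866 in edgeR). The cause of these changes was not tested. Depth limits Ctss and the other counted genes that fell under the filter.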
